A study of Taeniopygia guttata with 169 samples.

Results

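Of 17292 genes measured in zebra finch bone marrow, 100 are described here: the most abundant transcripts among those whose level stayed within narrow limits with age and sex. They were chosen by measured values. Each gene's value was put on the log2(value + 1) scale, where a difference of 1 is a doubling. A gene was kept when the 4 age means of control birds spanned less than 1 and the mean of males differed from that of females by less than 0.25. Of 11718 genes that met both limits, the 100 with the highest mean over all libraries were taken. Age differences in control birds, sex differences and the level itself are therefore given below as descriptions, with no test.

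The series asked how a sublethal dose of methylmercury (MeHg), 1.2 ppm in food, acts on blood formation in zebra finches (Taeniopygia guttata) of varied historical exposure. Messenger RNA of bulk bone marrow was sequenced from 83 libraries of MeHg birds and 78 of control birds. MeHg libraries numbered 15, 25, 21 and 22 at days 6, 18, 35 and 90, and control libraries 17, 21, 19 and 21 at the same ages. Sex was female for 74 libraries and male for 87, the birds came from 2 cohorts, and the libraries held between 4572638 and 14968673 reads (median 7637898). The labels do not say that each library is a separate bird or which birds are related, so the p-values below rest on the spread from library to library, which may be technical in part.

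Bone marrow makes red cells, white cells and the nucleated thrombocytes of birds, and its makeup shifts as a chick grows. In any tissue a small number of transcripts, such as those for the ribosome, the cytoskeleton and energy metabolism, make up a large part of messenger RNA. Transcripts that keep a steady level across ages and sexes are often sought as internal standards for expression measurements. In bulk tissue, a lower level of a transcript in each cell and fewer cells that carry it cannot be told apart. The table gives Ensembl identifiers without gene symbols, and the gene table used here paired none of them with a name. The genes are therefore called by identifier, with no role given, and the marrow label could not be checked against markers of its cell types.

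The 100 genes took 16.0% ± 2.00 of all normalised counts (SD, all libraries), with 11.1% in the lowest library and 22.9% in the highest. In MeHg birds their share was 16.7% ± 3.04 at day 6 (SD, n = 15), 16.3% ± 1.58 at day 18 (n = 25), 15.7% ± 1.46 at day 35 (n = 21) and 15.3% ± 2.12 at day 90 (n = 22). In control birds it averaged 16.1% ± 2.36 (n = 17), 16.1% ± 1.54 (n = 21), 15.5% ± 1.64 (n = 19) and 16.6% ± 2.23 (n = 21) at the same ages. The groups overlapped at every age, and no group mean lay more than 1 SD from that of the other treatment. This SD is the spread between libraries and not the error of a mean, and the differences in share were not tested.

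A single gene dominated the set. ENSTGUG00000027908 alone took 6.13% of all normalised counts, and the other 99 together took 10.1%, as mean level over mean library total. The share of the whole set given above is instead a mean of the shares in single libraries, so these figures do not add up to it exactly. Its normalised read count (the reads of a gene divided by a size factor for each library) averaged 473667 and lay between 85336 and 1391130. ENSTGUG00000012670 followed with a mean of 57933 and a much tighter range, 36922 to 87304. The coefficient of variation over all libraries was 44.1% for the first of these and 16.2% for the second.

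The next genes lay close together in level. ENSTGUG00000004138 averaged 24548 and ENSTGUG00000012808 averaged 23710. ENSTGUG00000004622, ENSTGUG00000005264 and ENSTGUG00000001885 averaged 17796, 16481 and 16304. Within each of these groups the means differed by far less than the spread over libraries. ENSTGUG00000005913, ENSTGUG00000010452 and ENSTGUG00000000491, with means of 15146, 14765 and 13571, completed the 10 highest. Among these 10, the coefficient of variation ran up to 59.5%, in ENSTGUG00000000491, which lay between 3097 and 65387. Normalised counts are not divided by transcript length, so these figures order the genes by reads and not by molecules.

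Below the 10 highest the levels fell off slowly. The median of the 100 means was 6083, 20 genes had a mean over 10000, and the lowest mean was 4074. Every member had at least 302 reads in every library, and all 100 passed the filter on low values, so counting error was small for each of them.

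**Figure D1:**
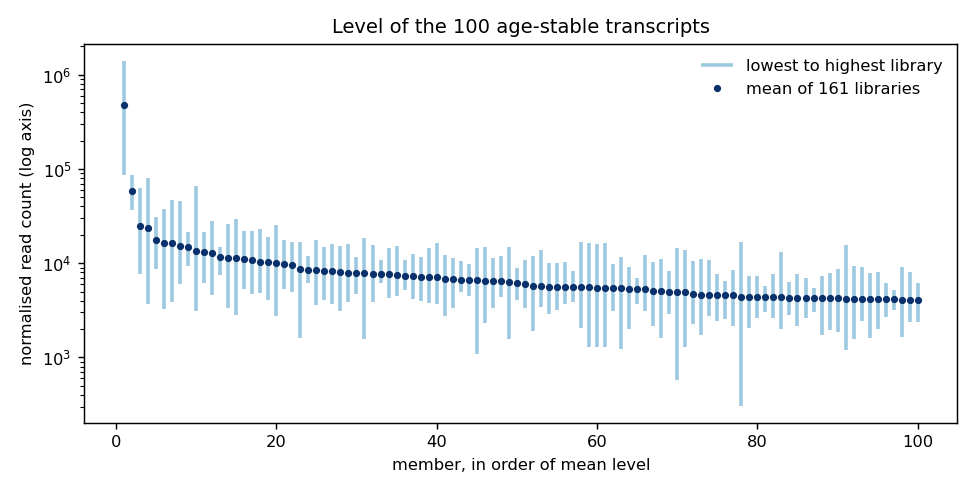
Mean normalised read count of each of the 100 genes over all libraries (points, log axis) with the lowest and highest library (bars), in order of mean. The first gene, at 473667, stands far above the second, at 57933, and a few genes further down reach much lower in single libraries.

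Both limits of the rule bore on which abundant genes were included. A further 46 genes were at least as abundant as the last member and were left out. The age limit removed 41 of these, 14 of which also failed the sex limit, and 5 failed the sex limit alone. Of the 10 most abundant genes in the table, 4 were members, as were 10 of the 20 most abundant and 30 of the 50 most abundant.

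The values on either side of each limit were close. By mean level, ENSTGUG00000002312 (4092) and ENSTGUG00000009259 (4074) were the last taken, and ENSTGUG00000003882 (4056) and ENSTGUG00000000928 (4054) the first left out. By the age range of control birds, ENSTGUG00000002582 (0.998) and ENSTGUG00000004622 (0.997) lay just inside, and ENSTGUG00000010391 (1.03) and ENSTGUG00000008243 (1.05) just outside. By males minus females, ENSTGUG00000025609 (0.24) and ENSTGUG00000001667 (0.24) lay just inside, and ENSTGUG00000006271 (-0.27) and ENSTGUG00000009510 (-0.31) just outside.

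No member was called for a MeHg difference over the mean of 4 ages, while 7.48% of the 14042 genes tested were called (limma with Benjamini-Hochberg adjustment at 0.05, fitted on all genes tested, with sex, cohort and plate as covariates). At an unadjusted p under 0.05 there were 5 members, where 21.3% of all genes tested were found. edgeR's quasi-likelihood test on the recovered reads called 0 members as well. The MeHg minus control difference of the members lay between -0.15 and 0.33 on the log2 scale, with a median of -0.02, against 0.00 for all genes tested. The median size of the difference, regardless of sign, was 0.03 for the members and 0.07 for all genes tested. The control libraries of this and the single-age comparisons entered the age limit, and libraries of both treatments entered the sex limit. Members were thus picked for steadiness and all genes tested were not, so the contrast between them is a description. These are estimates with errors, and a missed threshold does not show that the groups were alike. The 95% intervals give the limit instead: 99 of the 100 lay wholly within 0.5 of 0 in either direction, and the farthest bound of any member was 0.60.

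The 3 most abundant members show what lies behind these figures. ENSTGUG00000027908 had a lowest, median and highest value of 85336, 452016 and 1391130 in MeHg libraries (n = 83), against 182291, 451410 and 1110570 in control libraries (n = 78). The medians nearly coincided and both extremes lay among MeHg libraries. The fitted difference was -0.05 ± 0.08 (SE), with an adjusted p of 0.777 in limma. ENSTGUG00000012670 ran from 38940 through a median of 56902 to 84805 in MeHg libraries, against 36922, 58895 and 87304 in control libraries. Its difference was -0.07 ± 0.03 (SE), with an adjusted p of 0.212. For ENSTGUG00000004138 the median was 23076 in MeHg libraries (13912 to 48802) and 23311 in control libraries (7717 to 62833), and the difference was 0.02 ± 0.06 (SE) with an adjusted p of 0.878. The signs of ENSTGUG00000027908 and ENSTGUG00000004138 turned when the MeHg libraries of day 6 numbered 16 and 17 were left out, so no direction can be given for them.

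**Figure D2:**
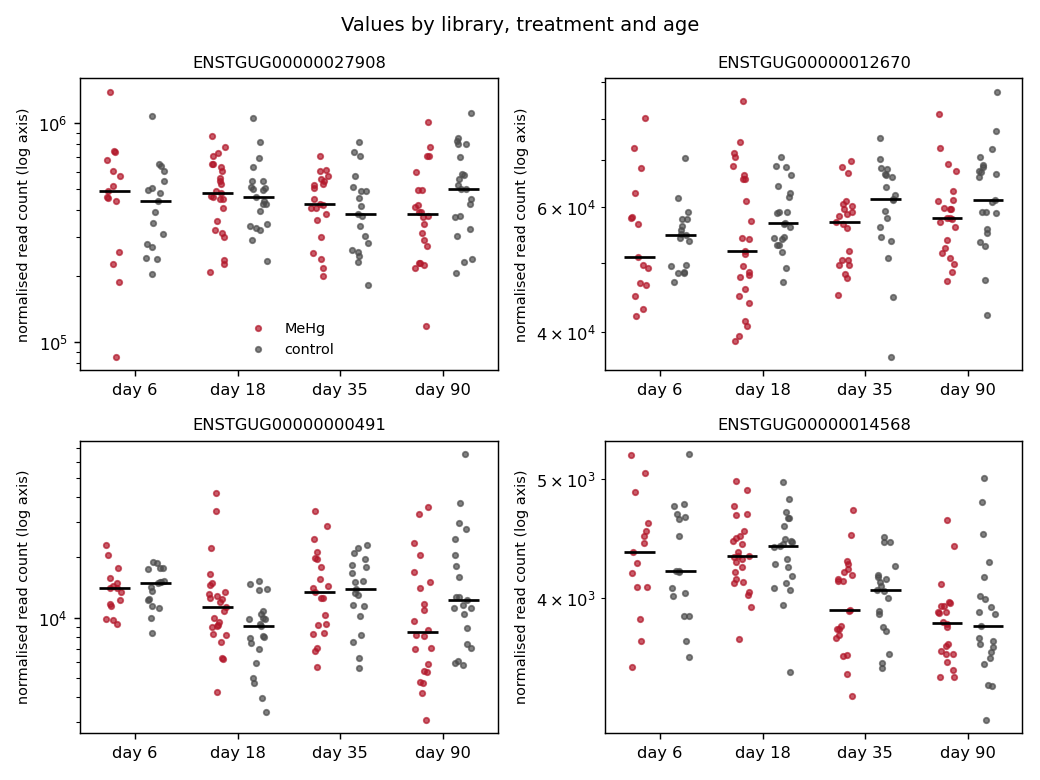
Normalised read count (log axes) of 4 members in each library, by age, with MeHg libraries in red on the left and control libraries in grey on the right of each age, and the group median as a line. The groups overlap at every age in the most abundant pair (upper panels), in ENSTGUG00000000491, which varied widely between libraries, and in ENSTGUG00000014568, which varied least.

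The member nearest to a call, ENSTGUG00000010166, had a median of 4713 in MeHg libraries (1622 to 9841), against 4993 in control libraries (2612 to 11138). It differed by -0.12 ± 0.05 (SE) with an adjusted p of 0.0913 in limma. Its lower extreme was a MeHg library and its upper extreme a control library, and the groups otherwise overlapped. The estimate farthest from 0 belonged to ENSTGUG00000022434, which was chosen for mention after its values were seen. It had a median of 4379 in MeHg libraries (654 to 15699), against 3949 in control libraries (308 to 16708), and differed by 0.33 ± 0.14 (SE) with an adjusted p of 0.121. It was also the member whose libraries were farthest apart.

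At single ages again no member was called, and the intervals were wider. By limma with adjusted p-values, 0 members were called at day 6, day 18, day 35 and day 90, where the shares of all genes tested were 0.0356%, 0.128%, 0.0783% and 0.199%. At an unadjusted p under 0.05 there were 1, 8, 1 and 24 members at these ages, where 5.68%, 11.4%, 8.88% and 15.2% of all genes tested were found, and edgeR called 0 at each. At day 90 the members thus exceeded the unadjusted share of all genes tested. At the other ages they lay below it, as over the mean of 4 ages. In no member did MeHg and control libraries fail to overlap at any of the 4 ages, and the share of all genes tested was 0% at each. The interval lay within 0.5 of 0 for 96 members at day 6, for 94 at day 18, for 98 at day 35, and for 82 in the oldest birds. The mean of 4 ages can hide opposed estimates. ENSTGUG00000000491 had the largest estimate at day 18, 0.49 ± 0.21 (SE) with an adjusted p of 0.332 in limma. It also had the farthest from 0 at day 90, -0.59 ± 0.22 (SE) with an adjusted p of 0.170. Over the mean of 4 ages its difference was -0.04 ± 0.11 (SE). These comparisons were picked after their values were seen.

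At day 90 most estimates lay below 0, though no member was called. Of the 100 differences 70 were below 0 and 30 above, where 52.8% of all genes tested were above 0. The median of all 100 was -0.08, against 0.01 for all genes tested. A set of 47 members varied together across libraries, as described below, so the 70 are not all separate observations. Among those with the smallest p, ENSTGUG00000002098 had values of 2381 to 13769 (median 4424) in MeHg libraries of day 90, against 4119 to 16077 (median 5160) in control libraries. It differed by -0.42 ± 0.13 (SE) with an adjusted p of 0.0968 in limma. ENSTGUG00000002582 had values of 7781 to 13163 (median 10507) in MeHg libraries, against 5403 to 12983 (median 9050) in control libraries, and differed by 0.25 ± 0.08 (SE) with an adjusted p of 0.0979. Both pairs of groups overlapped over most of their range, and both genes were named after their values were seen. At day 18 the lean was the other way, with 63 members above 0 and 37 below (median 0.03). At day 6 there were 37 above and 63 below (median -0.02), and at day 35 53 above and 47 below (median 0.01). Of all genes tested, 49.0%, 50.2% and 48.8% were above 0 at days 6, 18 and 35. The mean of 4 ages averages over these leans, and the same set of 47 enters each count.

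Several day 90 libraries held extreme values of many members. The MeHg library numbered 7 held the highest value of 16 members, and the control library numbered 15 the highest of 8. Both, with the control library numbered 16, were the 3 libraries that lay farthest from other libraries of the same group by principal components, and all 3 were females of cohort 2. Without these 3 the median difference of the members at day 90 was -0.05, against 0.01 for all genes tested, and 0 members were called.

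**Figure D3:**
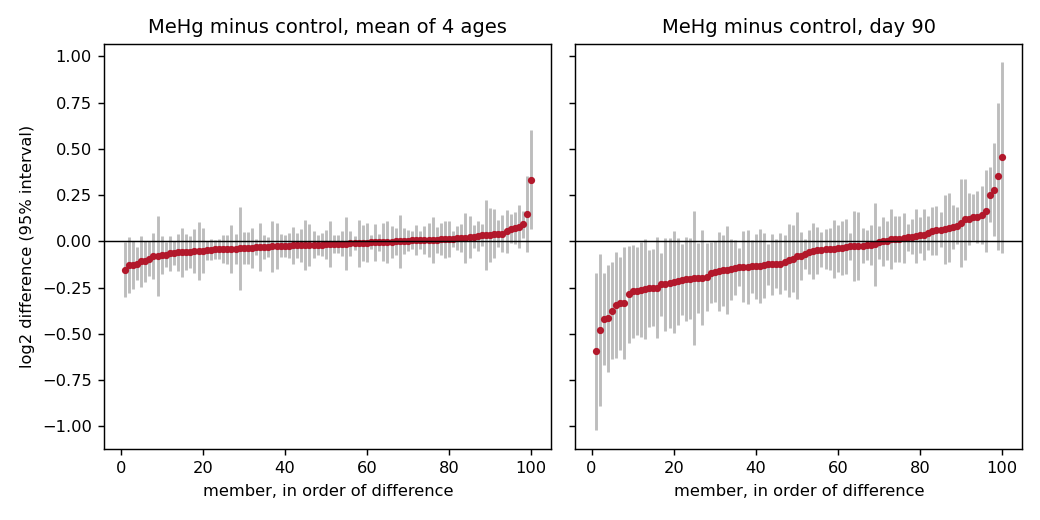
MeHg minus control difference of each member on the log2 scale with its 95% interval, over the mean of 4 ages (left) and at day 90 (right), members in order of difference. Over the 4 ages 99 intervals lie within 0.5 of 0, and at day 90 70 of the 100 points lie below 0 and the intervals are wider.

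The MeHg difference was not called to vary with age, cohort or sex in any member. The interaction of MeHg with age was called for 0 members and 0% of all genes tested by limma, with 10 members and 5.37% of all genes at an unadjusted p under 0.05. The control libraries in that interaction also entered the rule. The interaction with sex was likewise called for 0 members and 0% of all genes, with 2 members and 3.37% of all genes at an unadjusted p under 0.05. That with cohort was called for 0 members, where 2.60% of all genes tested were called, and 2 members and 14.2% of all genes had an unadjusted p under 0.05. edgeR called 0 members for each of the 3 interactions.

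The age limit used control libraries only, so age was tested in MeHg birds, whose libraries did not enter it. Members moved with age in control birds too, within that limit. Of the 100, 84 were called for age in MeHg birds by limma. Among all genes tested 76.2% were called, so being called for age was not particular to the members. The age range of MeHg birds, the highest minus the lowest of 4 age means on the log2 scale, had a median of 0.51 over the members and ran between 0.06 and 1.36. In control birds it had a median of 0.47, and stayed under 1 by the rule. All genes tested had a median range of 0.63 in MeHg birds and 0.64 in control birds. The 9373 other tested genes that met the same limits had a median of 0.49 in MeHg birds, close to that of the members.

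In 5 members the age range of MeHg birds reached 1 or more, where 5.28% of the 9373 other tested genes that met the same limits did. All 5 were lowest at day 6. ENSTGUG00000004788 had the widest range. Its lowest, median and highest values in MeHg birds were 1211, 2230 and 3748 at day 6 (n = 15), 3114, 5833 and 12052 at day 18 (n = 25), 1762, 3219 and 7060 at day 35 (n = 21), and 1916, 3171 and 14335 at day 90 (n = 22). The 2 youngest groups of MeHg birds thus overlapped only at their edges. In control birds the medians of this gene were 2072, 3557, 4404 and 3892 at the same ages, highest at day 35. At day 18 it differed between MeHg and control birds by 0.47 ± 0.18 (SE) with an adjusted p of 0.249, and among libraries with a labelled RNA integrity number (RIN) by 0.86 with an adjusted p of 0.0191 when RIN was fitted.

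Day 18 was the most frequent age of the highest mean among the members in MeHg birds. The highest age mean fell on day 6 in 27 members, on day 18 in 56, on day 35 in 4 and on day 90 in 13, and the lowest fell on day 6 in 38 and on day 90 in 46. In control birds the highest fell on day 18 in 45 members and the lowest on day 6 in 39 and on day 90 in 26. The shares of all genes tested that were highest or lowest at each age are not given here. Whether a highest mean at day 18 is particular to the members was therefore not tested.

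Between day 6 and day 18 of MeHg birds, 57 members were called, where 57.6% of all genes tested were, a share close to that of the members. The split by direction was less even. There were 42 higher at day 18 (29.4% of all genes tested) and 15 lower (28.2%), and the median of all 100 members was 0.13, against 0.02 for all genes tested. The sizes were moderate: 22 of the 57 exceeded 0.5 and 1, ENSTGUG00000004788, exceeded 1. In control birds, described without a test, the age means of all 57 moved the same way. The set of 47 members that varied together, described below, held 20 of the 42 higher and 3 of the 15 lower. These calls are therefore not separate observations.

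ENSTGUG00000010553 had a median of 5028 at day 18 (4409 to 6074) and 3212 at day 6 (2578 to 4080) in MeHg birds, and no library of day 18 was as low as any of day 6. The difference was 0.59 ± 0.06 (SE), adjusted p 1.45e-17 in limma. ENSTGUG00000004622 had a median of 18100 at day 18 (11963 to 19863) and 9955 at day 6 (8629 to 12244), a difference of 0.73 ± 0.07 (SE), adjusted p 1.16e-16. Its groups touched at the edge, and it continued upward, to medians of 18970 at day 35 and 21858 at day 90.

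In the other direction, ENSTGUG00000010711 had a median of 5628 at day 18 (4350 to 7441) and 9407 at day 6 (7883 to 11962), with no overlap, and fell by 0.78 ± 0.06 (SE), adjusted p 3.45e-24 in limma. After day 18 it stayed level, with medians of 5701 at day 35 and 5664 at day 90. ENSTGUG00000001004 had a median of 7856 at day 18 (4812 to 13702) and 14846 at day 6 (11166 to 22842), and fell by 0.74 ± 0.09 (SE), adjusted p 2.32e-13. In this gene the groups overlapped in part.

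RNA integrity moved with age. RIN averaged 7.64 ± 0.61 at day 6 (SD, n = 27), 8.66 ± 0.40 at day 18 (n = 32), 8.84 ± 0.38 at day 35 (n = 34) and 8.90 ± 0.41 at day 90 (n = 34). In the libraries with a RIN, 54 members were called between day 6 and day 18 when RIN was fitted, 37 higher and 17 lower, 47 of them among the 57. The MeHg library of day 6 numbered 16 held the lowest value of 21 members and that numbered 17 the lowest of 10. Without this pair 55 were called, 37 higher and 18 lower, 49 of them among the 57, and the median step of the members was 0.08. Shares of all genes tested are not given here for either fit.

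Between day 18 and day 35 the members moved mostly downward. Of 52 called, 45 were lower and 7 higher at day 35, where 31% of all genes tested were called, 15.0% lower and 16.0% higher. The median step was -0.14 over the members and 0.03 over all genes tested. Of the 32 members called in both steps, 23 were higher at day 18 and then lower at day 35, 3 were lower and then higher, 2 were higher in both and 4 lower in both. In 23 members neither step was called. The control means of all 52 moved the same way, given here as a description. Of the 45 lower, 24 belonged to the set of 47 members that varied together, so these calls are not separate observations either.

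ENSTGUG00000004672 fell at day 35 to a median of 3920 (2663 to 6649), against 5465 at day 18 (3672 to 7219), a difference of -0.50 ± 0.07 (SE), adjusted p 3.67e-08 in limma. ENSTGUG00000008312 had a median of 4668 at day 35 (2897 to 5925), against 6015 at day 18 (3299 to 7674), a difference of -0.38 ± 0.06 (SE), adjusted p 6.51e-07. Both pairs of ages overlapped. Among the 7 that rose, ENSTGUG00000010746 had a median of 4390 at day 35 (2096 to 6918), against 3002 at day 18 (1572 to 5648), a difference of 0.56 ± 0.11 (SE), adjusted p 3.35e-05. ENSTGUG00000004138, among the most abundant members, had 26406 (16995 to 41528) against 18556 (13912 to 31945), a difference of 0.38 ± 0.11 (SE), adjusted p 0.00378.

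From day 35 to day 90 no member was called by limma or by edgeR, where limma called 3.32% of all genes tested. At an unadjusted p under 0.05 there were 27 members, where 16.5% of all genes tested were found. The estimate was above 0 in 24 of the 100 members and in 49.2% of all genes tested, and the median was -0.08 for the members and 0.00 for all genes. The smallest adjusted p was 0.0631, in ENSTGUG00000022860, with a difference of -0.15 ± 0.05 (SE). This count depended on a few libraries: without the 3 that lay farthest from their groups, 7 members were called, 6 of them lower and 1 higher at day 90. The share of all genes tested in that fit is not given here, so the 7 are not set against it.

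**Figure D4:**
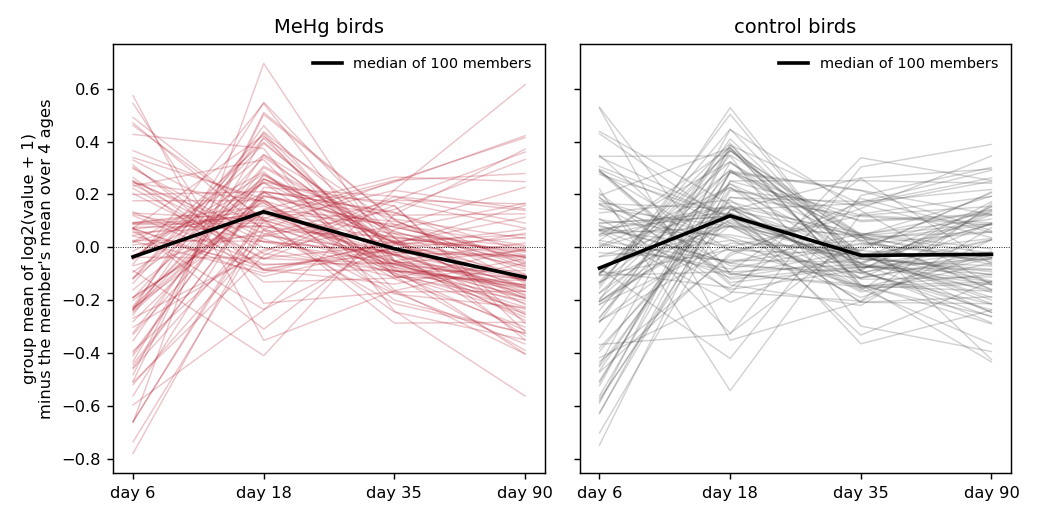
Age means of each member on the log2(value + 1) scale, as the difference from the member's own mean over 4 ages, in MeHg birds (left) and control birds (right), with the median of the 100 members in black. The highest age is day 18 in 56 of the MeHg lines and 45 of the control lines, and the control lines span less than 1 by the rule that chose the members. The shares of all genes tested are not given here.

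Members differed widely in how much they varied between libraries of 1 treatment and age. The pooled standard deviation within these groups, on the log2 scale, had a median of 0.32 over the 100 members and ran between 0.13 and 0.89. It had a median of 0.71 over the 46 genes that were as abundant but failed a limit, and of 0.47 over all genes tested. The rule limited the means of ages and sexes, which are not independent of this spread, so these medians are a description.

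ENSTGUG00000014568 and ENSTGUG00000007840, both at 0.13, and ENSTGUG00000001085, at 0.16, varied least. ENSTGUG00000014568 lay between 3184 and 5233 over all libraries, and its group medians ran between 3816 and 4356 in MeHg birds and between 3797 and 4412 in control birds. At the other end stood ENSTGUG00000022434 (0.89), ENSTGUG00000000491 (0.71) and ENSTGUG00000025609 (0.70). ENSTGUG00000022434 lay between 308 and 16708, and at day 6 alone its values ran between 654 and 15699 in MeHg birds and between 308 and 16708 in control birds. A steady mean across ages thus went with library values that lay 54.2-fold apart in this gene. Over the members the highest library exceeded the lowest by a median of 4.00-fold. In 7 members it did so by less than 2-fold, in 69 by less than 5-fold and in 16 by 10-fold or more.

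Much of this variation was shared between members. After treatment, age, sex, cohort and plate had been fitted, the first principal component of the 100 members held 38.9% of their remaining variance, the second 13.7% and the third 6.07%. Over the 4950 pairs of members the correlation across all libraries had a median of 0.20, with 439 pairs over 0.7, 1629 below 0 and 612 below -0.3. These points share libraries, size factors and depth, and the correlations are given as a description.

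Grouped by these correlations, joining at an average of 0.5, 47 members formed a single set led by ENSTGUG00000027908, ENSTGUG00000005264 and ENSTGUG00000001885, with a median correlation of 0.66 between its members. That set took 10.0% of all normalised counts on average, but 3.73% in the lowest library and 18.3% in the highest. ENSTGUG00000027908 alone made up most of this average, so the shares of the set weigh this gene far above its other members. In MeHg birds its share averaged 10.8% ± 3.66 (SD), 10.4% ± 1.81, 9.67% ± 1.77 and 9.17% ± 2.51 at days 6, 18, 35 and 90, against 10.2% ± 2.74, 10.3% ± 1.91, 9.32% ± 2.09 and 10.6% ± 2.59 in control birds. The differences between treatments were smaller than the SD of either group at every age. That SD is the spread between libraries and not the error of a mean, and the differences in share were not tested.

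A pair of smaller sets held 6 members each. ENSTGUG00000008996 led one, which took 0.524% of counts with a median correlation of 0.66, and ENSTGUG00000013479 led the other, which took 0.436% with a median of 0.70. Between these small sets the median correlation was 0.49, and each stood less close to the set of 47, at 0.36 and 0.16. The other 41 members fell into sets of fewer than 5. ENSTGUG00000012670, the second most abundant member, was among them, as were ENSTGUG00000004138 and ENSTGUG00000012808, whose correlations with ENSTGUG00000027908 were 0.37, -0.35 and 0.00.

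The birds' cohort was called for 26 members, 25 higher and 1 lower in cohort 2, where 16.0% of all genes tested were called, 8.45% higher and 7.55% lower. All of these differences were small. The median over the members was 0.07, against -0.01 for all genes tested, and the farthest estimates were -0.27 and 0.29. ENSTGUG00000029222 had a median of 5568 in cohort 2 (3739 to 13812, n = 88) and 5030 in cohort 1 (3471 to 9032, n = 73), a difference of 0.21 ± 0.05 (SE), adjusted p 0.00205 in limma. ENSTGUG00000007742 had a median of 6465 in cohort 2 (3197 to 14674) and 5504 in cohort 1 (2312 to 12308), a difference of 0.27 ± 0.07 (SE), adjusted p 0.00223. The 1 lower member, ENSTGUG00000009259, had a median of 3918 in cohort 2 (2390 to 5318) and 4152 in cohort 1 (2938 to 6171), a difference of -0.10 ± 0.04 (SE), adjusted p 0.0371. The ranges of the cohorts overlapped in all 3 genes, though each cohort also reached values that the other did not.

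Of the 25 members higher in cohort 2, 23 belonged to the covarying set of 47, so these calls are not separate observations. The number was sensitive to the libraries: 9 were called without the 3 farthest libraries, and 12 without MeHg day 6 libraries 16 and 17. It was 7 with the code in each library's title, whose meaning the labels do not give, as a random effect, and all 7 were higher. For these settings the share of all genes tested is not given here.

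**Figure D5:**
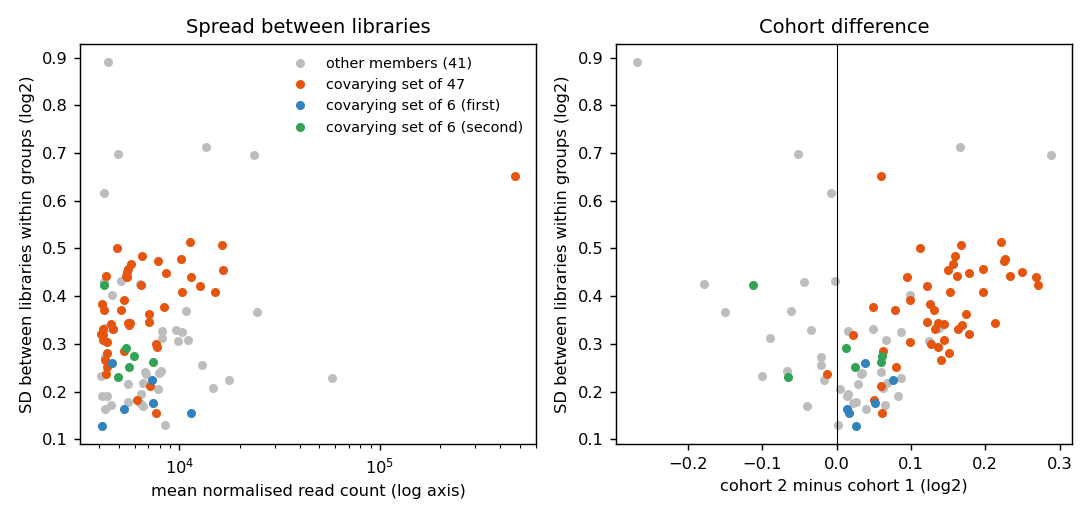
Standard deviation of log2(value + 1) between libraries within treatment-by-age groups for each member, against mean normalised read count (left, log axis) and against the cohort 2 minus cohort 1 difference (right), coloured by covarying set. The 20 most abundant members have a median of 0.41 and the 20 least abundant 0.31, and most members of the set of 47 lie right of 0 in the cohort panel.

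The labelled plate of a library was called for 73 members by limma, where 52.6% of all genes tested were called. Plates held different mixes of ages, so values are given here within an age. Among libraries of day 90, ENSTGUG00000006631 had a median of 6430 on plate I (5285 to 8478, n = 8) and 11808 on plate G (10589 to 13627, n = 6), with no overlap. Its adjusted p over plates, with age in the fit, was 4.20e-18. ENSTGUG00000022096 had a median of 6114 on plate I (4905 to 7687, n = 8) and 10065 on plate B (9079 to 11222, n = 5) at the same age, also with no overlap, and its adjusted p was 1.26e-17. These plates were picked after their values were seen. With extraction batch in place of plate, 48 members were called, and the share of all genes tested in that fit is not given here. Plate was a covariate in the fitted differences above, except with extraction batch in its place. It did not enter the age means, the age ranges, the shares of counts or the standard deviations within groups.

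RIN, fitted in the libraries that have one, was called for 16 members, 5 higher and 11 lower with each unit of RIN, where 12.8% of all genes tested were called, 6.83% higher and 5.95% lower. ENSTGUG00000001885 rose by 0.34 ± 0.10 (SE) per unit, adjusted p 0.0139 in limma, and ENSTGUG00000002312 by 0.22 ± 0.06 (SE), adjusted p 0.0130. ENSTGUG00000000312 fell by 0.26 ± 0.06 (SE) per unit, adjusted p 0.00134, and ENSTGUG00000006623 fell by 0.14 ± 0.03 (SE), adjusted p 0.00105. All 5 that rose were members of the set of 47.

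Counting age in MeHg birds, plate, cohort and RIN together, 97 of the 100 members were called for at least 1, where 89.2% of all genes tested were. The 3 that were called for none were ENSTGUG00000000491, ENSTGUG00000013338 and ENSTGUG00000011341. These were not the genes that varied least: their standard deviations between libraries were 0.71, 0.43 and 0.29, and ENSTGUG00000000491 was the second most variable member. The 3 least variable members, led by ENSTGUG00000014568, were each called for at least 1.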

How the data were processed

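Bulk bone marrow was profiled by RNA sequencing. Per the labels' protocols, RNA was isolated with an RNAzol reagent, purified on oligo(dT) beads and made into libraries with NEBNext Ultra II reagents. Tools listed in the submitters' processing notes are R 4.0.2, DESeq2 1.30.1, Subread and featureCounts. Genome build, annotation and use of strand were not given in the sources used here. Reads of overlapping genes or near-identical copies may therefore be shared. Each deposited value is a normalised signal, a read count that the authors divided by 1 size factor per library. This was checked on the values: 100% came out as whole reads within a tolerance of 1e-06, and the factors equal DESeq2's median of ratios to 8.22e-15.

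Groups, plates, extraction batches and RIN were read from the labels. There are 169 labelled libraries, of which 8 were not analysed here. The rest come from 11 plates and 20 extraction batches, and their titles carry 34 codes. Plate D has 1 library, which adds nothing to fits with plate.

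A gene was tested when at least 15 libraries had a value of 10 or more, which 14042 genes did. The test was limma 3.58.1 (R 4.3.3; trend, robust) on log2(value + 1), with 8 groups of treatment and age, and sex, cohort and plate as covariates. A gene was called at a Benjamini-Hochberg adjusted p under 0.05 over all genes tested. Age in MeHg birds, plate and the interaction of MeHg with age were tested with F tests in this fit. Interactions of MeHg with cohort and sex, and RIN, were tested in fits with that term added. The 95% intervals are the estimate ± 1.96 SE. edgeR 4.0.16 on recovered reads was an alternative, and other alternatives are given in the closing section. The scripts were tested on simulated data.

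The members, lists and tests were chosen with earlier results of these data known. Named genes are the 10 highest means, those next to each limit, up to 2 each way with the smallest p among called members, and the 3 lowest and 3 highest spreads. Genes named for a MeHg difference, for day 90 minus day 35, for an age range of 1 or more, as leaders of covarying sets or as called for nothing were named after their values were seen. The reference gene table (bTaeGut7.mat) paired 0 identifiers with a symbol, so the cell type and pathway lists could not be applied and no sequences are given.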

Additional observations from a re-analysis of the deposited data

How the results depend on the processing

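The alternatives were a pseudocount of 4, no filter on low values, TMM scaling, edgeR on recovered reads, extraction batch in place of plate, a random effect for the code in the titles, nested in cohort, the libraries with a RIN and RIN fitted, and all libraries except the 3 farthest from their groups. Added after seeing the data were the libraries with a RIN and no RIN term, and all libraries except MeHg day 6 libraries 16 and 17. Of the counts of members and the 2 descriptions of spread and covariation, 147 values stayed within 1.5 times the value reported, and 11 did not. The 147 include counts of 0 that stayed at 0, so they say less about the results with members called. Between day 90 and day 35 of MeHg birds, where 0 members were called, 4 were called with the title code and 7 without the 3 farthest libraries. For MeHg minus control at day 18, where 0 were called, 1 (ENSTGUG00000004788) was called among the libraries with a RIN, with RIN fitted or not. For cohort, where 26 were called, the count was 16 with extraction batch, 5 among the libraries with a RIN, fitted or not, 7 with the title code, 12 without MeHg day 6 libraries 16 and 17 and 9 without the 3 farthest libraries. For plate, where 73 were called, 48 were called for extraction batch. Counts under these alternatives are given without the share of all genes tested in the same fit, and are not set against it. The libraries with a RIN are fewer, and for the other settings the cause was not tested. Of values for single genes 377 kept their direction and side of the threshold, 6 passed it and 7 lost it. Without MeHg day 6 libraries 16 and 17 the mean MeHg difference turned to 0.0032 for ENSTGUG00000027908 and to -0.0039 for ENSTGUG00000004138. No member was called for the mean MeHg difference under any of these alternatives. The rule itself gave 98 of the same members with the sex limit on control libraries alone, 95 with no sex limit, 77 with an age limit of 0.75 and 100 with a pseudocount of 4. No paired analysis was possible because the replicate numbers only name libraries in accession order. Identifiers without symbols limit what can be said of the genes' roles.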
